A study of Homo sapiens with 4 samples.

Results

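The genes described here are 51 interferon-stimulated effector genes, that is, genes whose protein products carry out the antiviral and immune actions of the interferon response. The rule gives them by gene symbol and sets no cutoff on a measured value. Members and classes were nevertheless chosen with earlier results of these data known, so the shares below describe the list and do not test it. All 51 were found among the 20372 genes of the deposited table. Of these, 49 were among the 12876 genes with enough counts to be tested, and DHX58 and RTP4 were not. The question was how effector classes and genes of low and high starting level compare when RET inhibition is prolonged.

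The libraries were made from TPC1 cells, an established human papillary thyroid carcinoma line that carries the CCDC6-RET fusion and was grown in DMEM with 10% FBS. A pair of libraries came from cells treated with the RET inhibitor BLU6864 for 6 h and another pair from cells treated for 24 h. The labels give a dose of 100 µM and single-end reads of 50 bp, whereas the methods give 100 nM and paired-end sequencing for 100 cycles. The labels also call the 24 h libraries, but not the 6 h libraries, a re-analysis. No interferon and no other agent is named for these samples. All 4 libraries carry the inhibitor, so the effect of the drug and the effect of longer culture cannot be told apart, and neither can an effect of the re-analysis. Nothing states that the libraries of a time point came from separate cultures, so P values measure only the spread between these libraries. Total counts were 23917056 and 26829072 at 6 h and 26486456 and 27457040 at 24 h.

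Interferons are secreted proteins that bind paired receptors on the cell surface and activate JAK kinases. These phosphorylate STAT factors, which join IRF9 and bind interferon-stimulated response elements (ISREs) in promoters. Type II interferon acts mainly at gamma-activated sites (GAS). Many effectors keep a basal level without interferon through unphosphorylated STATs or IRF factors. The effectors sense viral RNA, block translation or membrane fusion, degrade RNA, or modify proteins with the ubiquitin-like ISG15.

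Most effector genes were more abundant after 24 h of BLU6864 than after 6 h. A gene was called higher or lower with a log2 fold change beyond 0.5 in either direction and an unadjusted P under 0.01 in edgeR's quasi-likelihood test. By this rule 37 of the 49 tested members were higher at 24 h, against 17.4% of all genes tested. Only GBP2 was lower, against 17.7% of all genes tested, and 11 members were not called. Both 24 h libraries lay above both 6 h libraries in 43 members and below them in 3, whereas these shares were 41% and 40.8% over all genes tested. A Benjamini-Hochberg adjusted P under 0.05, with no cutoff on size, was reached by 42 members that were higher and 2 that were lower, compared with 33% and 32.6% of all genes.

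The changes were large as well as frequent. The log2 fold change exceeded 1 in 30 members and 2 in 14, compared with 6.96% and 1.76% of all genes tested. The median log2 fold change was 1.14, with a range from −1.26 in GBP2 to 5.14 in MX2, while the median of all genes tested was 0.0029. Summed over the 51 genes, the normalized count, which is the raw count corrected for library size by the TMM method, was 2.06-fold higher at 24 h. Of all counts of a library, the members took 0.284% and 0.267% at 6 h but 0.568% and 0.536% at 24 h. In bulk RNA, a higher share of expressing cells and more RNA per cell cannot be told apart.

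**Figure D1:**
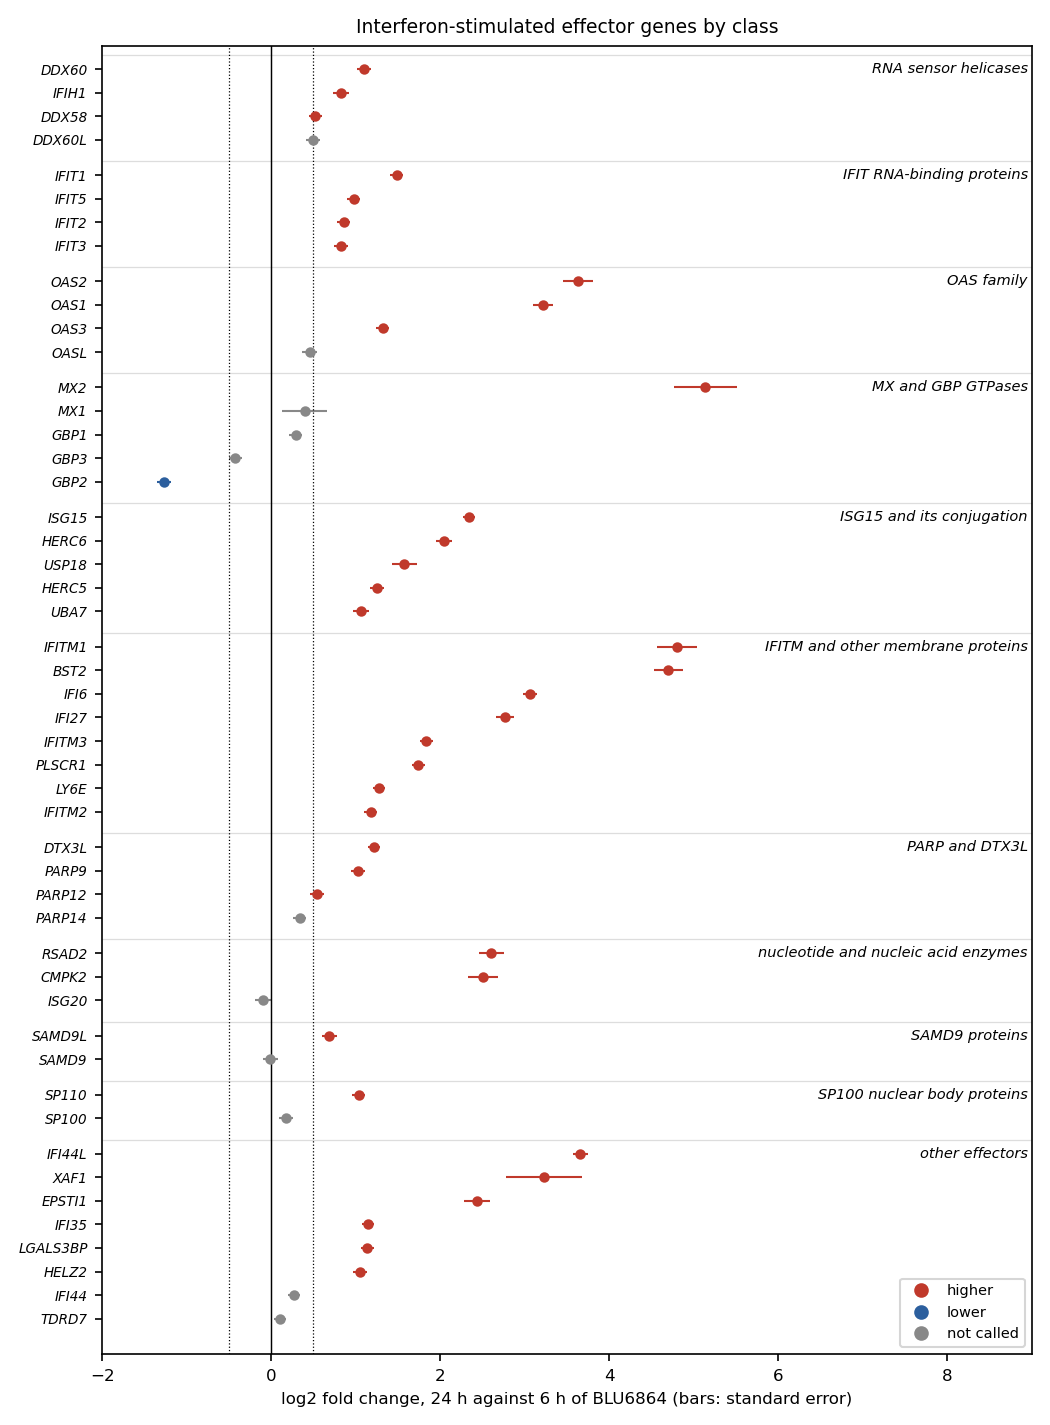
Log2 fold change of the 49 tested members at 24 h against 6 h of BLU6864 (horizontal axis), grouped by effector class, with bars for the standard error and dotted lines at −0.5 and 0.5. The 8 membrane proteins and the 5 ISG15 genes all lie to the right of 0.5, whereas the MX and GBP genes spread from −1.26 to 5.14.

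The promoters of the members were searched because most of these genes are known as targets of interferon signaling, and the letters show which members share an element. RefSeq start sites (GRCh38.p14) were listed for 41 members with 55 promoter windows of 300 bases, reaching from 250 bases before the start to 50 after it. No entry was listed for DHX58, IFIT2, OAS2, OASL, MX2, GBP2, UBA7, USP18, IFITM2, and LY6E. The ISRE core, searched on both strands as GAAA, any 2 bases, and GAAA again, was present in 35 of the 55 windows (63.6%), against 3.57% of all 35116 promoter windows. The GAS letters TTCNNNGAA were present in 14 windows (25.5%), against 7.66% of all. The 30-base stretches below are read along each gene, with the ISRE letters or their reverse complement in capitals, and belong to members with large rises, to members with the highest levels, and to members that were not called.
IFITM1: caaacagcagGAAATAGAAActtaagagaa
BST2: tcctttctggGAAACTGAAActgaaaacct
IFI44L: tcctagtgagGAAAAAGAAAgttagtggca
IFI6: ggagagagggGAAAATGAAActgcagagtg
ISG15: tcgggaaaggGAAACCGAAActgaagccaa
IFITM3: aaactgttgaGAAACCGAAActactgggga
LGALS3BP: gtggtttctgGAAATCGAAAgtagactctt
IFIT1: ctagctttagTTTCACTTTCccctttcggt
RSAD2: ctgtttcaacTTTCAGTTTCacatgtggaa
GBP1: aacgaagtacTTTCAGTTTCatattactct
SAMD9: tctgagaaatGAAACTGAAAccaaacctat
ISG20: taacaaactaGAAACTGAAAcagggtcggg

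These stretches lie at chr11:313990-314019 on the plus strand for IFITM1, chr19:17405741-17405770 on the minus strand for BST2, and chr1:78620365-78620394 on the plus strand for IFI44L. Those of IFI6 (minus), ISG15 (plus), and IFITM3 (minus) are chr1:27672288-27672317, chr1:1013380-1013409, and chr11:320876-320905. LGALS3BP (minus), IFIT1 (plus), and RSAD2 (plus) have theirs at chr17:78979962-78979991, chr10:89392497-89392526, and chr2:6877622-6877651. For GBP1 (minus), SAMD9 (minus), and ISG20 (plus) the positions are chr1:89065316-89065345, chr7:93118096-93118125, and chr15:88638937-88638966. All lie before the RefSeq start of their window. The stretch of IFI44L occurs a second time, letter for letter, at chr1:78620274-78620303.

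Presence of the ISRE letters did not divide the called from the uncalled members. At least 1 match was found in 21 of the 30 members called higher that had an entry and in 8 of the 10 that were not called. A window with 2 or more matches was found for 14 of those 30 and for 1 of those 10, DDX60L. The median log2 fold change of the members called higher was 1.48 with a match and 1.15 without. ISG20 and SAMD9 carry the letters GAAACTGAAA, as BST2 does, but their log2 fold changes were −0.10 and −0.01, compared with 4.70 in BST2. Their windows are not alike otherwise. BST2 has 2 overlapping ISRE matches and 2 GAS matches, whereas ISG20 and SAMD9 each have 1 ISRE match and no GAS match. Conversely, OAS1, HERC6, CMPK2, and XAF1 rose by more than 2 on the log2 scale with no match in these windows. GAS letters were found in 9 of the 30 and 3 of the 10. The 57 ISRE matches over all windows lay in 52 distinct 30-base stretches of the genome, as some windows overlap. Of the 57, 51 ended within the 150 bases before the start. Over all windows, 5 neighbouring pairs overlapped each other, and 6 of 15 GAS matches overlapped an ISRE match. A match describes the letters only and was not tested as a site of binding.

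**Figure D2:**
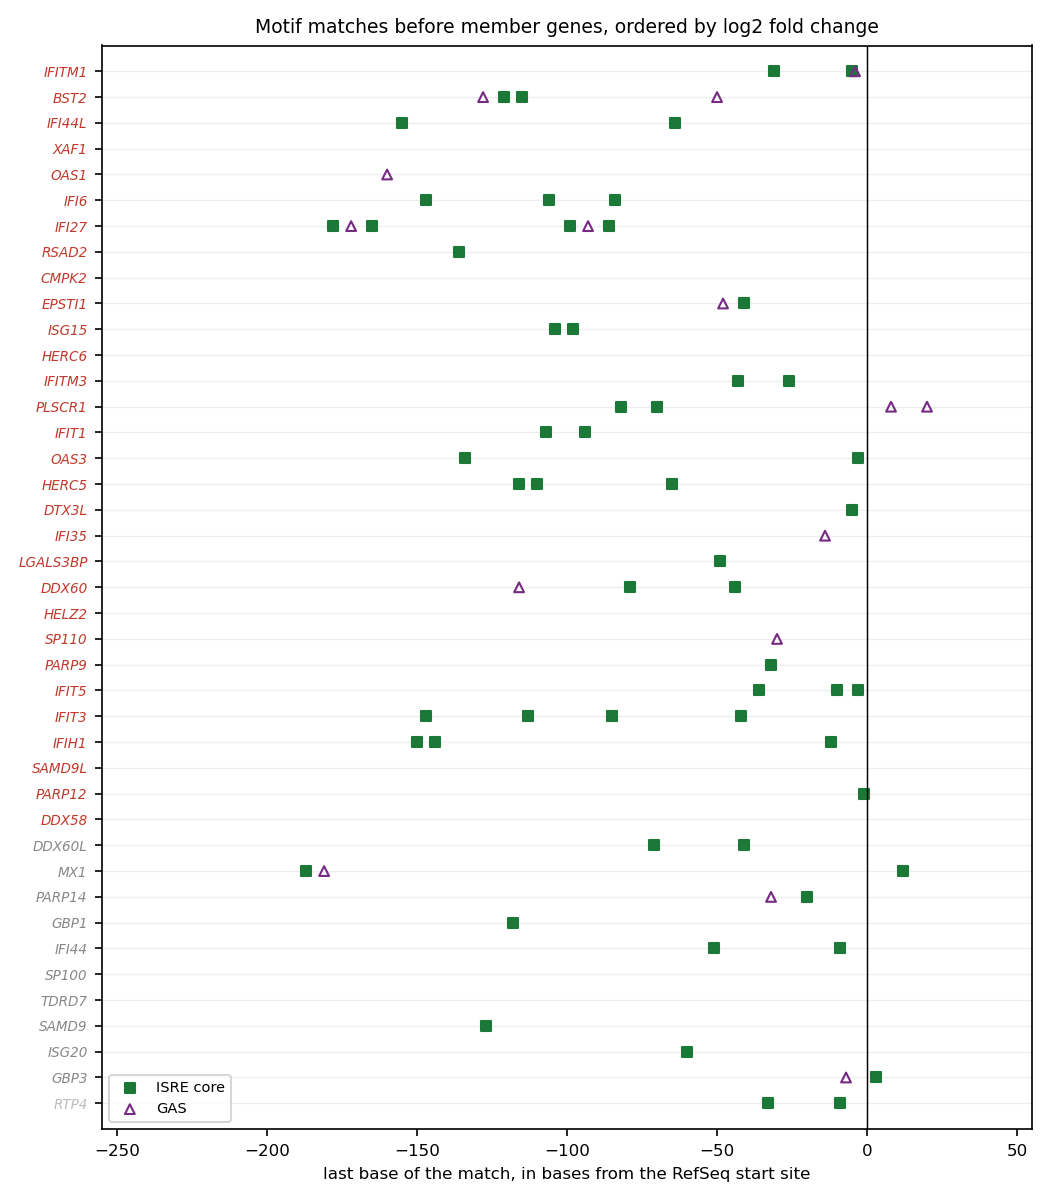
Positions of ISRE core (squares) and GAS (triangles) letters, as bases from the RefSeq start of each window (horizontal axis), in the 41 members with an entry, ordered from the largest log2 fold change at the top, with red names for members called higher and gray for the others. Most squares lie in the 150 bases before the start, in members that rose and in members that were not called alike.

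All 8 membrane proteins rose, each by more than 1 on the log2 scale. Their median log2 fold change was 2.30, and the summed normalized count was 3.59-fold higher at 24 h. IFITM1, a membrane protein that blocks fusion of viruses with the cell, had 15.1 and 5.76 normalized counts at 6 h against 292 and 281 at 24 h. The log2 fold change was 4.80 (standard error 0.232, adjusted P = 5.17e-16), the largest among members with a mean of at least 100 normalized counts. IFITM1 met that mean only through its 24 h libraries. The 6 h libraries of IFITM1 differed more than 2-fold from each other, but both were far below the 24 h libraries, and the log2 fold change was 5.61 without the 6 h library 1 and 4.23 without the 6 h library 2. BST2 (tetherin), which holds budding virions on the cell surface, had 23.7 and 18.2 normalized counts at 6 h and 585 and 501 at 24 h (log2 fold change 4.70, standard error 0.172, adjusted P = 1.17e-18). In the hg19 positions of the table these genes are at chr11:313506-315272 and chr19:17513748-17516457.

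Members of this class that were already abundant at 6 h also rose. IFITM3, an endosomal relative of IFITM1 that blocks influenza virus entry, had 3775 and 3574 normalized counts at 6 h and 13340 and 12837 at 24 h (log2 fold change 1.83, standard error 0.0762, adjusted P = 1.89e-17). Per kilobase of transcript it was the most abundant member at 24 h, with 14806 normalized counts per kilobase. IFI6, a mitochondrial and endoplasmic reticulum protein with antiviral activity, had 1214 and 1096 normalized counts at 6 h and 10058 and 9191 at 24 h. This was a log2 fold change of 3.06 (standard error 0.0826, adjusted P = 1.23e-21), and with 10565 per kilobase IFI6 was second in level at 24 h. The smallest change of the class was that of IFITM2, with 1510 and 1335 at 6 h and 3161 and 3270 at 24 h (log2 fold change 1.18, adjusted P = 1.83e-13). In none of these genes did the time points overlap. The other members were IFI27, a small mitochondrial protein, with a log2 fold change of 2.76, the phospholipid scramblase PLSCR1 with 1.74, and the GPI-anchored LY6E with 1.28. IFITM1 and IFITM2 overlap in the table, so their split of reads is uncertain. Further, 38.9% of the 50-base stretches of the IFITM1 transcript also occur in other genes, mostly in ENSG00000288681 (35.5%). So do 12.0% of those of IFITM2, with 7.21% in ENSG00000288681, and 19.3% of those of IFI6, all in LINC02574. The reads counted for these 3 genes are uncertain for that reason too.

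In the class of ISG15 and listed genes linked to its conjugation, 5 of 5 members were called higher. Their summed normalized count at 24 h was 3.60-fold that at 6 h. Their median log2 fold change was 1.57. ISG15 itself, the ubiquitin-like modifier, had 872 and 886 normalized counts at 6 h and 4518 and 4389 at 24 h (log2 fold change 2.34, standard error 0.0747, adjusted P = 5.16e-20). UBA7, the E1 enzyme that activates ISG15, changed least, from 341 and 318 at 6 h to 675 and 697 at 24 h (log2 fold change 1.06, standard error 0.0936, adjusted P = 1.55e-10). The libraries of the time points were thus clearly separated at both ends of the class. HERC5, the main ISG15 ligase in human cells, and its relative HERC6 had log2 fold changes of 1.25 and 2.04. USP18, which removes ISG15 from proteins and also restrains type I interferon receptor signaling, had a log2 fold change of 1.57 (adjusted P = 4.52e-10), but 52.9% of its 50-base stretches occur in other genes.

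Among the OAS genes, whose products make 2′-5′ oligoadenylates in response to double-stranded RNA, 3 of 4 rose and the class had a median log2 fold change of 2.27. OAS2 had 32.4 and 24.0 normalized counts at 6 h and 371 and 323 at 24 h (log2 fold change 3.63, standard error 0.176, adjusted P = 6.02e-16). OAS1 had 82.0 and 93.1 at 6 h and 859 and 775 at 24 h (log2 fold change 3.22, standard error 0.118, adjusted P = 1.26e-18). Both genes were scarce at 6 h, and their means at 24 h were 12.3-fold and 9.33-fold higher. OAS3, already at 1159 ± 48.5 normalized counts at 6 h (SD, n = 2), rose to 2898 ± 248, a log2 fold change of 1.32. OASL, a family member without the synthetase activity that enhances RNA sensing, had 588 and 536 at 6 h and 788 and 753 at 24 h. With 0.46, its log2 fold change was under the cutoff although the libraries did not overlap and the adjusted P was 5.31e-05.

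The enzymes that act on nucleotides and nucleic acids were divided. RSAD2 (viperin), which makes a chain-terminating nucleotide, had 68.0 and 67.2 normalized counts at 6 h and 462 and 361 at 24 h (log2 fold change 2.60, standard error 0.150, adjusted P = 2.3e-14). Its neighbor CMPK2, a mitochondrial nucleotide kinase, had a log2 fold change of 2.51. The genes overlap in the table, so reads in the overlap are uncertain. ISG20, an exonuclease that degrades viral RNA, had 425 and 412 at 6 h and 409 and 372 at 24 h. All values of ISG20 lay close together, and its log2 fold change was −0.10 (95% interval −0.29 to 0.09, adjusted P = 0.387).

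The 4 IFIT genes, whose products bind viral RNA and block its translation, all rose, with a median log2 fold change of 0.92. IFIT1, which recognizes RNA that lacks the methylation of host caps, had 3626 and 3382 normalized counts at 6 h and 10499 and 9104 at 24 h (log2 fold change 1.48, standard error 0.0799, adjusted P = 5.21e-15). IFIT3, its partner in the complex, had 4122 and 3779 at 6 h and 7673 and 6347 at 24 h (log2 fold change 0.83, standard error 0.0825, adjusted P = 1.62e-09). These were thus abundant genes with moderate changes, as were IFIT2 with a log2 fold change of 0.86 and IFIT5 with 0.97. IFIT1, IFIT2, and IFIT3 overlap LIPA in the table, and LIPA moved the other way, from a mean of 10004 to 6414 normalized counts. The part of shared reads in the IFIT values was not tested.

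Of the helicases that sense viral RNA, 3 of 4 tested genes rose, with a class median log2 fold change of 0.67. DDX60, a helicase that promotes RIG-I signaling, had 653 and 572 normalized counts at 6 h and 1345 and 1277 at 24 h (log2 fold change 1.10, standard error 0.0834, adjusted P = 7.25e-12). Its paralog DDX60L had 863 and 763 at 6 h and 1144 and 1141 at 24 h, and with a log2 fold change of 0.49 it fell just short of the cutoff (adjusted P = 6.84e-06). No value of a 6 h library reached those of the 24 h libraries in either gene. IFIH1 (MDA5), a sensor of long double-stranded RNA, had a log2 fold change of 0.83, and DDX58 (RIG-I), which senses RNA with 5′ triphosphates, had 0.52 (standard error 0.0719, adjusted P = 4.65e-07). With library size scaling DDX58 had a log2 fold change of 0.48 and was not called, and leaving out the 24 h library 1 or the 6 h library 2 gave 0.48 as well. Further, 89.1% of the 50-base stretches of DDX58 occur in another gene of the GENCODE v44 annotation, ENSG00000288684, which is not in the deposited table. DHX58 (LGP2), the regulator of the other two sensors, had 4 and 3 raw counts at 6 h and 8 and 25 at 24 h, too few to be tested.

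Of the PARP genes and DTX3L, 3 of 4 rose, with a class median log2 fold change of 0.78. The ubiquitin ligase DTX3L had 1981 and 1822 normalized counts at 6 h and 4351 and 4471 at 24 h (log2 fold change 1.21, standard error 0.0729, adjusted P = 5.39e-14). PARP9, its partner in the same complex, had a log2 fold change of 1.03. Both genes overlap in the table, so reads in the overlap are uncertain. PARP14, a mono-ADP-ribosyltransferase, had 4969 and 4522 at 6 h and 6282 and 5688 at 24 h, which did not reach the cutoff (log2 fold change 0.34, adjusted P = 0.000362). PARP12, which restricts alphaviruses, had a log2 fold change of 0.54, and values of 0.50 with library size scaling and 0.46 without the 24 h library 1 were not called.

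The large GTPases differed from the other classes in that their summed normalized count was lower at 24 h, 0.667 of that at 6 h. This sum went from a mean of 9821 to 6554, and GBP2 within it from 4890 to 2035. The class did not fall as a whole. Its median log2 fold change was 0.29, with MX2 higher, GBP2 lower, and 3 not called. GBP2, a guanylate-binding protein that coats intracellular pathogens and is known as a target of type II interferon, had 5311 and 4468 normalized counts at 6 h and 2113 and 1956 at 24 h. Both later libraries were less than 0.5 of either earlier library, and the log2 fold change was −1.26 (standard error 0.0810, adjusted P = 2.15e-13). GBP3 had 3285 and 3428 normalized counts at 6 h and 2727 and 2275 at 24 h, with a log2 fold change of −0.42 that stayed within the cutoff (adjusted P = 3.66e-05). GBP1, in contrast, had 1594 and 1483 at 6 h and 1996 and 1765 at 24 h, with a log2 fold change of 0.29 (adjusted P = 0.00149). The 3 GBP genes thus lay on both sides of zero although they are neighbors at chr1:89518002-89531043 (GBP1), chr1:89571815-89616139 (GBP2), and chr1:89472349-89488577 (GBP3) in hg19.

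The MX genes, whose products are dynamin-like proteins that trap viral nucleocapsids, were both scarce. MX2, which acts against HIV-1 at the nuclear pore, had 2 and 3 raw counts at 6 h and 94 and 96 at 24 h. The ratio of the summed counts, scaled by library size, was 36.8 (exact binomial 95% interval 15.5 to 115, counting error only), and the fitted log2 fold change was 5.14 (standard error 0.371, adjusted P = 2.75e-12). MX2 thus had few reads at 6 h, and the size of its rise is known only roughly, since that interval leaves out the spread between libraries. MX1, which acts against influenza virus, had 31.3 and 36.5 normalized counts at 6 h and 34.9 and 54.5 at 24 h. The time points of MX1 overlapped, and its log2 fold change of 0.40 had a 95% interval from −0.13 to 0.92 (adjusted P = 0.197).

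SAMD9 and SAMD9L, neighboring genes for proteins that inhibit translation and restrict poxviruses, differed from each other. SAMD9L had 573 and 539 normalized counts at 6 h and 940 and 849 at 24 h (log2 fold change 0.69, standard error 0.0869, adjusted P = 1.24e-07). SAMD9 had 1291 and 1112 at 6 h and 1285 and 1099 at 24 h, so its libraries overlapped and its log2 fold change was −0.01 (95% interval −0.18 to 0.16). Likewise, of the nuclear body proteins, SP110 had 771 and 794 at 6 h and 1703 and 1506 at 24 h (log2 fold change 1.04, standard error 0.0789, adjusted P = 7.93e-12). SP100 had 3126 and 3022 at 6 h and 3777 and 3170 at 24 h (log2 fold change 0.18, adjusted P = 0.0505). Each pair thus held a member that rose and a member that was not called. SP110 overlaps SP140 in the table, which had means of 1675 and 2759 normalized counts at 6 h and 24 h.

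The remaining effectors, 9 genes of mixed function, included 6 that rose, with a median log2 fold change of 1.14 over the 8 tested. IFI44L, a feedback regulator of the response, had 196 and 229 normalized counts at 6 h and 2803 and 2584 at 24 h (log2 fold change 3.66, standard error 0.0911, adjusted P = 2.47e-22). Its paralog IFI44, the adjacent gene, had 1607 and 1651 at 6 h and 2014 and 1903 at 24 h, with a log2 fold change of only 0.27 (adjusted P = 0.00182). Per kilobase of transcript, IFI44L was at 36.5 normalized counts against 969 of IFI44 at 6 h and at 462 against 1164 at 24 h, so the distance between the pair was smaller at the later time. The size of this distance depends on the length used. With the median length of each gene's protein-coding transcripts, the 6 h levels were 147 and 2375. LGALS3BP, a secreted galectin-binding glycoprotein, had 9477 and 8834 normalized counts at 6 h and 19252 and 21032 at 24 h (log2 fold change 1.14, standard error 0.0799, adjusted P = 1.51e-12). It was the most abundant member per kilobase at 6 h and the third at 24 h.

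XAF1, a binding partner of the apoptosis inhibitor XIAP, had 7 and 2 raw counts at 6 h and 54 and 35 at 24 h (log2 fold change 3.23, standard error 0.447, adjusted P = 5.34e-07). Its libraries were separated, but the size of the change rested on single libraries, with a log2 fold change of 4.43 without the 6 h library 1 and 2.52 without the 6 h library 2. The stromal interaction protein EPSTI1, the NMI-binding protein IFI35, and the helicase coactivator HELZ2 had log2 fold changes of 2.43, 1.15, and 1.05. TDRD7, a tudor protein that inhibits autophagy used by viruses, had 1835 and 1661 normalized counts at 6 h and 1930 and 1825 at 24 h. Its libraries overlapped, with a log2 fold change of 0.10 (95% interval −0.04 to 0.25, adjusted P = 0.216). RTP4, a receptor transporter protein with antiviral activity, had 7 and 2 raw counts at 6 h and 14 and 6 at 24 h and was not tested.

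The levels of the members at 6 h ranged from 0.718 normalized counts per kilobase in MX2 to 4158 in LGALS3BP, with a median of 183. At 24 h the median was 462 and the highest value 14806. The SD of the log2 levels over the 51 members was 3.04 at 6 h and 2.53 at 24 h, and over the 46 members with at least 10 counts in every library it was 2.37 and 2.11. The highest level was 22.7-fold the median at 6 h and 32.05-fold at 24 h, so the lower SD did not extend to the top of the order. Neighbors in the order were often within their spread, as for LGALS3BP and IFITM3 at 6 h, with 4158 and 4157 normalized counts per kilobase.

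**Figure D3:**
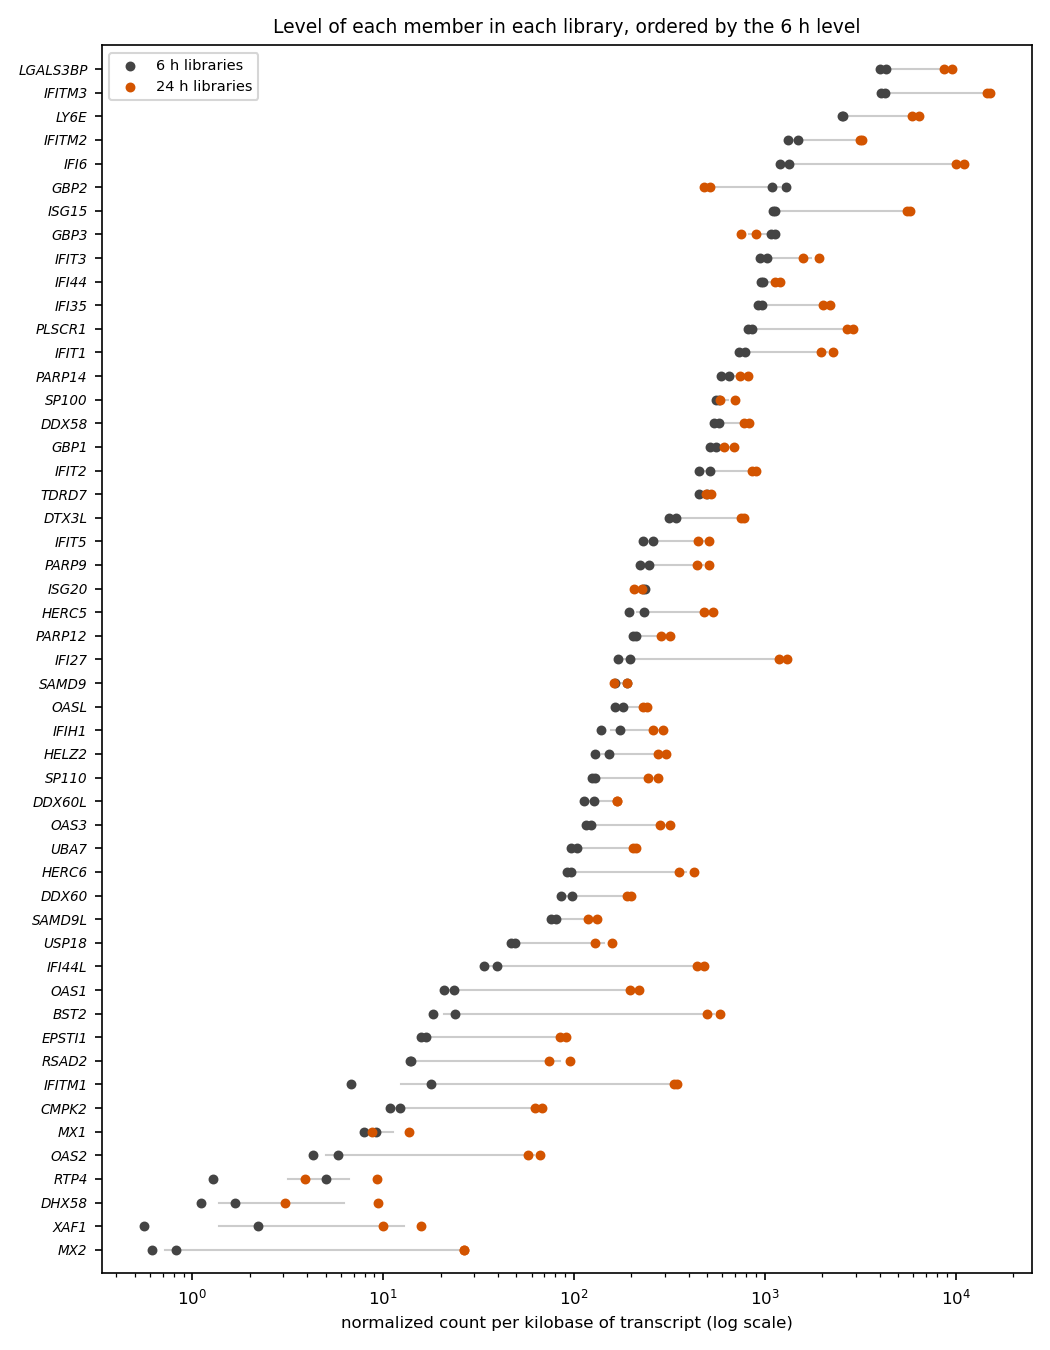
Normalized count per kilobase of transcript (horizontal axis, log scale) of the 51 members in each 6 h library (black) and each 24 h library (orange), ordered by the mean at 6 h. In most members both orange points lie to the right of both black points, whereas GBP2 and GBP3 lie to the left, and MX1 and SAMD9 overlap.

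Of all 51 members, the 17 with the lowest levels per kilobase at 6 h had a median log2 ratio of the 24 h mean to the 6 h mean of 2.51, with a range from 0.40 in MX1 to 5.21 in MX2. Of these, 14 were called higher, MX1 was not called, and DHX58 and RTP4 were not tested. The 17 members in the middle of the order had a median log2 ratio of 0.97, with 12 called higher and 5 not called. The 17 members with the highest levels had a median of 1.14, with 11 called higher, GBP2 lower, and 5 not called, and IFI6 and ISG15 were over 2. The filter on low counts acts at the low end, where 5 of the 17 members had under 10 counts in a library, and MX2, XAF1, and IFITM1 were kept for testing through their 24 h counts. Spearman's rank correlation of the level per kilobase at 6 h with the log2 fold change was −0.42 across the 49 members tested, as a description of genes that share libraries and are not independent replicates. Across 12566 tested genes with a known length it was −0.15. The 6 h counts enter both axes. With the level from a single 6 h library and the change from the other, the correlation was −0.42 both ways, and with the mean level of all 4 libraries it was −0.19. With the log2 ratio of means in place of the fitted change, it was −0.42 over all 51 members and −0.30 over the 46 with at least 10 counts in every library.

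**Figure D4:**
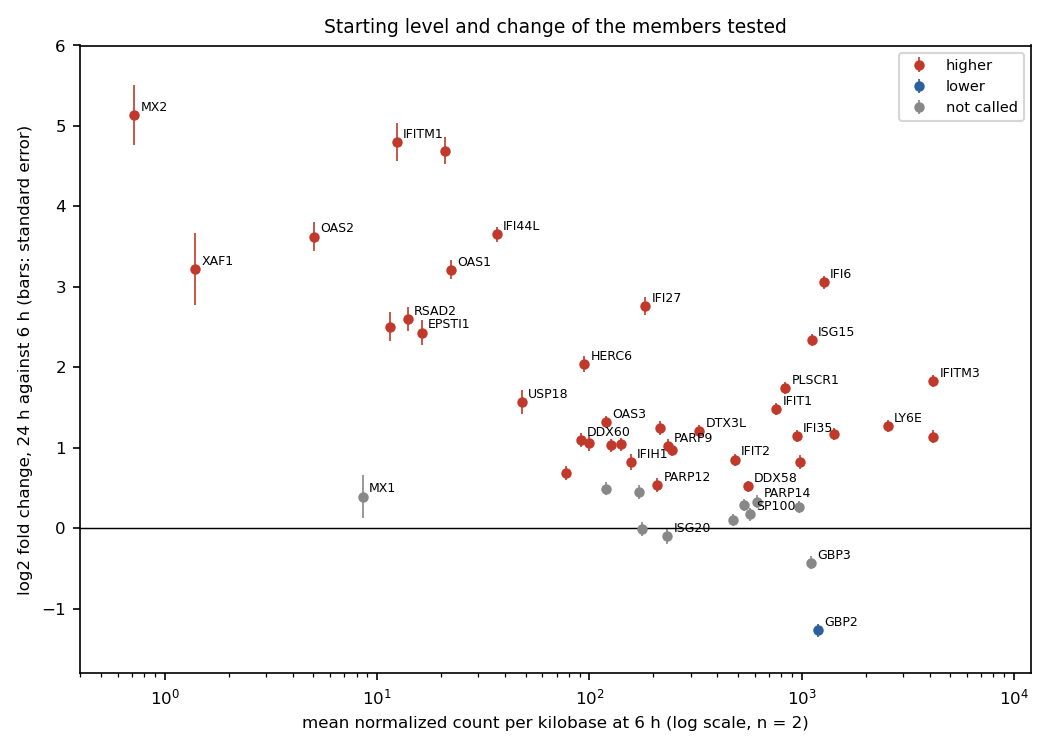
Log2 fold change at 24 h against 6 h (vertical axis, bars for the standard error) against the mean normalized count per kilobase at 6 h (horizontal axis, log scale) for the 49 tested members (DHX58 and RTP4 are not drawn), with names where they could be set without overlap. The left part holds most changes over 2, IFI6 and ISG15 stand above the other abundant members, and GBP2 is the single blue point.

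The genes that carry the interferon signal moved in both directions. Of 59 genes for ligands, receptors, kinases, transcription factors, sensing adaptors, feedback inhibitors, and further RNA-responsive proteins, 36 could be tested, and 10 were higher, 9 lower, and 17 not called, against 17.4% higher and 17.7% lower over all genes tested. Their median log2 fold change was 0.02. Interferon ligands were almost undetected, as 19 of 21 ligand genes had at most 3 counts in every library. IFNB1, the first type I interferon made by most cells, had 3 and 2 raw counts at 6 h and 1 and 0 at 24 h. IFNE, an interferon of epithelia and the only ligand tested, had 41 and 58 raw counts at 6 h and 25 and 32 at 24 h (log2 fold change −0.84, standard error 0.260, adjusted P = 0.00651), a fall that was not called by DESeq2 (adjusted P = 0.0709). No ligand transcript was thus seen to rise at this depth.

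Receptor genes were lower or not called. IFNAR1 had 4213 and 4174 normalized counts at 6 h and 2572 and 2447 at 24 h (log2 fold change −0.74, adjusted P = 7.09e-10). Its partner in the type I receptor, IFNAR2, had 1949 and 1973 at 6 h and 1144 and 1142 at 24 h (log2 fold change −0.78, adjusted P = 2.58e-10). Both chains of the type I receptor therefore fell while most effectors rose. IFNGR2, a chain of the type II receptor, had the largest change, with 6589 and 6732 normalized counts at 6 h and 2672 and 2651 at 24 h (log2 fold change −1.32, adjusted P = 5.38e-15). IL10RB, shared by the receptors for type III interferons and IL10, had a log2 fold change of −0.62, whereas IFNGR1 with −0.01 and IFNLR1 with 0.04 were not called.

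Of the transducers and factors next in the pathway, 4 of 6 JAK and STAT genes and 2 of 6 tested interferon regulatory factors were higher, and the others were not called. STAT2, a transducer of type I and type III interferon signals, had 3142 and 2866 normalized counts at 6 h and 4418 and 4370 at 24 h (log2 fold change 0.55, adjusted P = 2.34e-07), and it was not called without the 6 h library 2, with 0.48. IRF9, the DNA-binding partner of STAT2, was scarce, with 41 and 56 raw counts at 6 h and 92 and 75 at 24 h (log2 fold change 0.74, standard error 0.209, adjusted P = 0.00309). Both genes were thus higher, but IRF9 was not called by DESeq2 (log2 fold change 0.74), without the 24 h library 1 (0.57), or without the 6 h library 1 (0.61). IRF7, an amplifier of type I interferon expression that is itself an interferon target, had 844 and 768 normalized counts at 6 h and 2132 and 1974 at 24 h (log2 fold change 1.35, adjusted P = 1.58e-14). IRF1, the main secondary factor of type II interferon, had 1336 and 1273 at 6 h and 1243 and 1205 at 24 h (log2 fold change −0.09, adjusted P = 0.274). Of the kinases, JAK1 and JAK2 had log2 fold changes of 0.71 and 1.02, while TYK2 with −0.25 was not called.

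Among genes of nucleic acid sensing, the adaptor MYD88 and the RIG-I ubiquitin ligase TRIM25 were higher, with log2 fold changes of 0.63 and 0.62, and the kinase TBK1 and the adaptor TICAM1 were lower, with −0.63 and −0.58. The other 5, MAVS, TMEM173 (STING), MB21D1 (cGAS), IKBKE, and TLR3, were not called. Of the feedback inhibitors, SOCS1, which blocks JAK kinases, had 380 and 389 normalized counts at 6 h and 116 and 96.3 at 24 h (log2 fold change −1.86, standard error 0.128, adjusted P = 9.71e-13). SOCS3 was also lower, with a log2 fold change of −0.97, whereas PIAS1 and PTPN2 were not called. SOCS1 thus fell while USP18, the inhibitor counted among the effectors, rose. The RNA-responsive kinase EIF2AK2 (PKR) and the RNA editing enzyme ADAR were higher, with 0.76 and 0.81, and ZC3HAV1, an antiviral zinc finger protein, was not called.

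**Figure D5:**
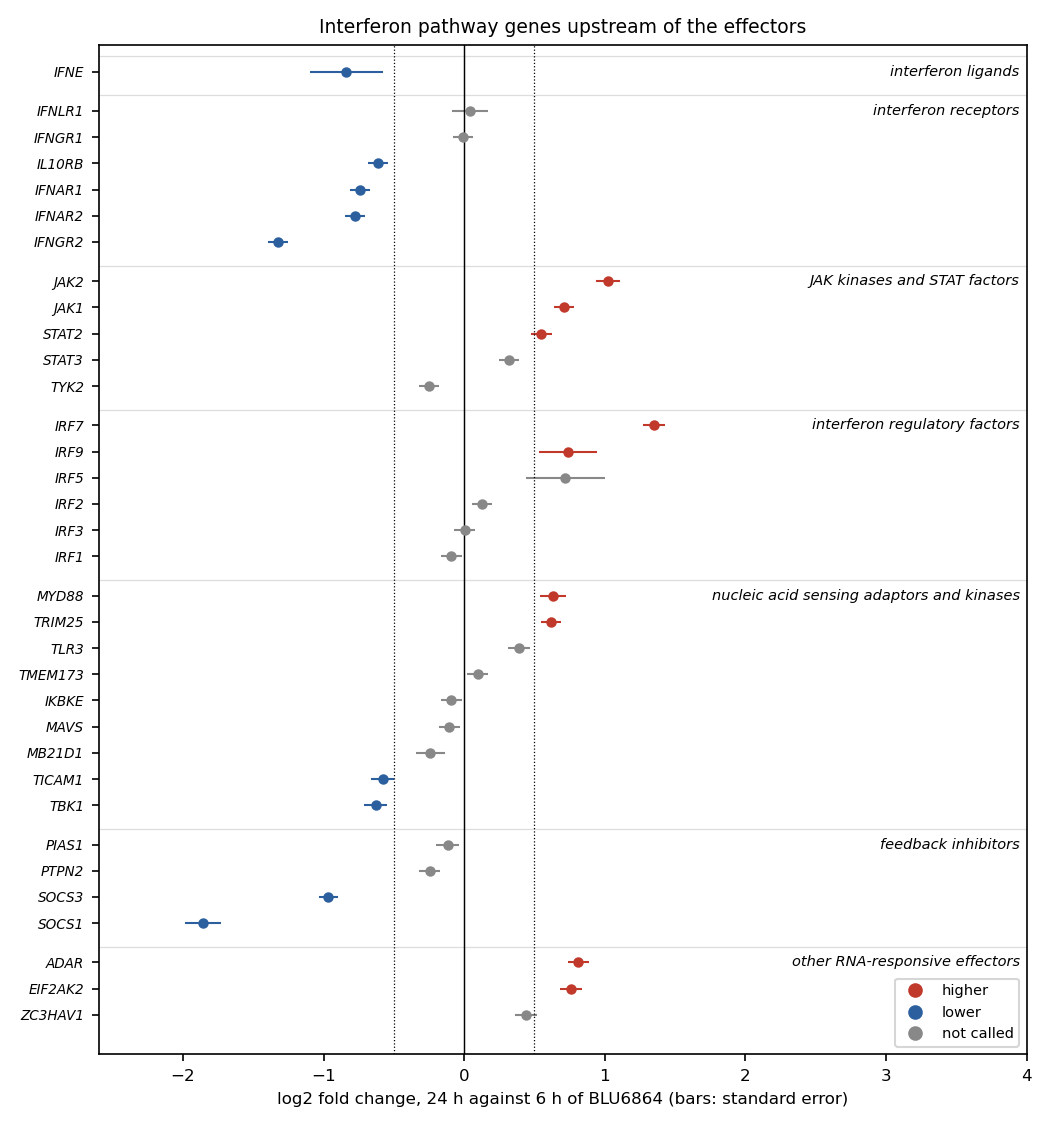
Log2 fold change at 24 h against 6 h (horizontal axis, bars for the standard error, dotted lines at −0.5 and 0.5) of 34 tested genes upstream of or beside the effectors, grouped by role. IRF7 and JAK2 lie to the right, the receptor genes and SOCS1 to the left or near zero.

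White blood cells also express many of these effectors, so their markers were counted. The 10 markers summed to between 64.3 and 68.0 normalized counts in the 6 h libraries and between 98.6 and 101 in the 24 h libraries, and 8 of the 10 had at most 5 raw counts in every library. CD14, a monocyte marker, made up most of this sum, with 50.7 and 39.3 normalized counts at 6 h and 84.7 and 88.6 at 24 h, and was itself called higher (log2 fold change 0.95, adjusted P = 0.000244). The part of such cells in the effector changes was not tested. The markers MS4A1, CLEC4C, and LILRA4, which define B cells and plasmacytoid dendritic cells, were at 0 in all 4 libraries. The means of the marker sum were 66.1 and 99.9 normalized counts, while those of the member sum were 71110 and 146621. Of the thyroid markers, PAX8 had between 19961 and 22045 normalized counts and FOXE1 between 268 and 541, whereas NKX2-1 and TSHR were at 0 in every library. TG, the precursor of thyroid hormone, had 201 and 235 at 6 h and 97.6 and 108 at 24 h and was lower (log2 fold change −1.09), whereas FOXE1 was higher (0.84). The keratins KRT8 and KRT18 had between 1714 and 1861 and between 863 and 1181 and were not called, while KRT7 was higher (0.84) and KRT19 lower (−1.59). The thyroid label of the line is therefore met by PAX8, FOXE1, and TG, and not by the markers at 0.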

How the data were processed

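The 4 libraries hold RNA of TPC1 cells after 6 h or 24 h of BLU6864, a pair for each time. Per the submitters' processing notes, reads were aligned with STAR 2.3 to hg19 and compared with DESeq2. The counting program, annotation, and strand setting are not given in the sources used here, so counts of overlapping genes and of genes with shared sequence are uncertain. The authors deposited the raw count of each gene, without normalization, which was used here. They also deposited a normalized signal, the count divided by a size factor per library. Deposited results of their own comparison, namely log2 fold changes and their standard errors, Wald scores, and p-values, were not used. The number of per-sample columns without a sample was 0.

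The whole table was fitted with edgeR 4.0.16 in R 4.3.3 (filterByExpr, TMM, quasi-likelihood test, time as the single factor), with the cutoffs of the methods, and P was adjusted by Benjamini-Hochberg over all genes tested. For normalized counts, each count was divided by the effective (TMM) library size, taken relative to the mean of the 4 libraries. Levels per kilobase use the longest protein-coding transcript in GENCODE v44, where stretches of 50 bases shared with other genes were also counted. The biological coefficient of variation was 0.0521. Libraries of the same time correlated with a Spearman coefficient of 0.998 or more and those of different times with 0.941 or less, and counts of same-time libraries differed beyond sampling noise (chi-square per degree of freedom 10.0 at 6 h and 7.65 at 24 h). Intervals of log2 fold changes are 1.96 standard errors either way. The fit was tested on simulated data.

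Members, classes, and pathway lists were chosen with earlier results of these data known, so no set test was run and a list is described by its counts and median. Values of every library were given for the 5 largest rises among members with a mean of at least 100 normalized counts, members called lower, the 3 highest levels per length at 24 h, the largest and smallest change of each class, and members with at most 3 counts in each 6 h library. IFITM1, BST2, OAS2, and OAS1 met the mean of 100 only through their 24 h libraries, so this cutoff favors large rises. Other values were chosen after they were seen. Single results for a few listed genes are not reported here. Alternatives were DESeq2 1.42.0, library size and upper quartile scaling, no filter, a minimum of 10 counts per library, a block for the replicate number, calls by adjusted P alone (under 0.05), and the omission of each library in turn. Promoter windows came from RefSeq (GRCh38.p14).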

Additional observations from a re-analysis of the deposited data

How the results depend on the processing

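The number of members called higher was 37 and lay between 34 and 38 with DESeq2, library size or upper quartile scaling, no filter, and at least 10 counts in every library, and 42 passed an adjusted P under 0.05 alone. With at least 10 counts, MX2, XAF1, and IFITM1 were not tested. Leaving out each library gave 35 to 39 members higher, 1 to 2 lower, and a median log2 fold change from 1.09 to 1.19, where the lone library of a time point is assumed to vary like the other group. Calls by adjusted P alone gave 2 members lower, GBP2 and GBP3, and GBP3 was also called without the 24 h library 1 (−0.56). For the pathway genes, each library left out gave 9 to 11 higher and 8 to 9 lower, and adjusted P alone gave 15 and 12.

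With the replicate number as a block, 37 members were higher, 1 was lower, and the median log2 fold change was 1.14, with 11 pathway genes higher and 9 lower. Libraries of the same number deviated together only weakly (correlation 0.129). Nothing states what the number marks, so whether these libraries share more than a number is not known.

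Changes of sign were seen only in genes that were not called. SAMD9 was 0.020 with upper quartile scaling, 0.11 without the 24 h library 2, and 0.10 without the 6 h library 1 (−0.12 to 0.11 over the libraries left out). IFNGR1 was 0.022, 0.048, and 0.016 with upper quartile scaling, without the 24 h library 2, and without the 6 h library 2 (−0.057 to 0.048 over the libraries left out). IFNLR1 was −0.00059 with library size and −0.0042 without the 6 h library 2 (up to 0.087 without another). IRF3 was −0.039 with library size and −0.014 without the 6 h library 1 (up to 0.023 without another). DDX60L (0.50 to 0.58), OASL (0.52), ZC3HAV1 (0.51 to 0.53), and IRF5 (0.73 and 1.04) were called under some alternatives. The cause was not tested. The correlations of level and change with single 6 h libraries, all 51 members, and the 46 members with at least 10 counts were added after seeing the data, and the last was −0.30 in place of −0.42. Depth limited DHX58 and RTP4, which were left untested, and with no filter DHX58 was called (2.15) and RTP4 was not (1.09).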
